A study of Mus musculus with 8 samples.

Results

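Branched-chain amino acid and ketone metabolism was described through 30 genes read from a table of 56953 genes. They were chosen by symbol for their known place in these pathways, with earlier results of these data known. The genes cover uptake of branched-chain amino acids, their transamination, the branched-chain keto acid dehydrogenase (BCKDH) complex with its kinase and phosphatase, the leucine branch, the isoleucine and valine branch, the propionyl-CoA branch and the use of ketone bodies. All 30 were present in the table, and 24 passed edgeR's filter on low counts. The 6 genes below it were Bcat1, Slc7a5, Slc7a8, Abat, Bdh1 and Bdh2. RNA of brown adipose tissue (BAT) had been sequenced from wild-type C57BL/6J mice aged 8 to 10 weeks at injection, with no genetic change in either group. The 4 control (CTR) mice were injected with PBS alone. The 4 mice with cancer-associated cachexia (CAC) received 3000000 Lewis lung carcinoma (LLC) cells, a mouse lung tumor line, under the skin of the flank and were followed for 21 days. Only tumor-bearing mice entered the CAC group, and the mice were male or female with the sex of each not stated. Each library was read as 1 mouse.

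Leucine, isoleucine and valine enter cells through transporters of the plasma membrane, lose their amino group to glutamate, and are committed to breakdown in mitochondria by the BCKDH complex. Leucine then yields acetyl-CoA and acetoacetate, whereas valine and isoleucine yield propionyl-CoA, which enters the citric acid cycle as succinyl-CoA. Brown fat is known to take up and oxidize branched-chain amino acids during thermogenesis. Ketone bodies are used by the same organelle, where OXCT1 activates acetoacetate and ACAT1 splits it to acetyl-CoA, and ACAT1 also catalyses the last cleavage of the isoleucine pathway. The question that the comparison of CAC with CTR addresses here is whether transcripts of these steps differed in BAT of tumor-bearing mice.

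The CTR libraries held 2454493 to 4827956 counts and the CAC libraries 1823167 to 3392538. Levels are given in CPM, a gene's count relative to the scaled total of its library, and 3 counts, the most that a count of 0 allows, equalled 0.66 to 1.62 CPM, a limit for counting error alone. Of all genes, 9876 passed the low-count filter and were tested with edgeR, and 92 of them had an adjusted p below 0.05, 73 higher and 19 lower in CAC. The 10 brown adipocyte markers, which include Ucp1, were detected in all libraries, and their summed level ranged from 18397 to 20292 CPM in CTR and from 17545 to 20022 CPM in CAC. Of the 10, 5 had a log2 fold change below 0 and 5 above, and none passed the adjusted test. At an unadjusted p below 0.05 in edgeR, 3 were lower in CAC (5.93% of all genes) and none higher (7.01% of all genes). In 3 of the 10, every CAC library lay below every CTR library (3.40% of all genes). The summed levels of the 12 skeletal muscle markers were 1649 to 3902 CPM in CTR and 3419 to 6049 CPM in CAC. The log2 fold changes of all 12 lay above 0, where 50.0% of all genes lay below it, with a median of 0.96. None of the 12 passed the adjusted test. By unadjusted p below 0.05 in edgeR, 7 of the 12 were higher in CAC (7.01% of all genes) and 0 lower (5.93%). For 3 of them every CAC library lay above every CTR library (3.64% of all genes). The macrophage list (9 genes) gave 209 to 234 CPM in CTR and 289 to 409 CPM in CAC with 2 genes called, C1qa and C1qb. The neutrophil list (8 genes) gave 6.12 to 6.64 CPM and 164 to 429 CPM. Only 3 of its genes were tested, and all 3 were called, S100a8, S100a9 and Retnlg. The study counted neutrophils on tissue sections and isolated immune cells, and reports no significant difference between CTR and CAC in either. Its staining found more S100A9 protein within brown adipocytes of CAC mice, with no difference in neutrophils. In culture, brown adipocytes released S100A9 after exposure to lung cancer cells. It proposes that most S100A9 secreted by CAC BAT comes from brown adipocytes. The list here holds S100a8 and S100a9 themselves and measures RNA, so it does not count neutrophils. The erythroid list (6 genes) gave 6180 to 19268 CPM and 14636 to 44326 CPM with 1 gene called, Slc4a1. No marker was at 0 in all libraries. The part of these cell types in the results that follow was not tested, and in bulk tissue fewer cells of a type and less RNA per cell cannot be told apart.

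None of the 24 members tested passed an adjusted p of 0.05 in edgeR's quasi-likelihood test over all genes, in which 0.932% of all genes passed it. With an unadjusted p below 0.05, 8 of the 24 differed, against a background of 12.9% of all genes tested. Of these, 5 were lower in CAC (background 5.93%), namely Acat1, Pccb, Hibadh, Mmab and Pcca, and 3 were higher (background 7.01%), namely Slc3a2, Hsd17b10 and Oxct1. Members had more counts than most genes, with a median of 60.7 CPM against 15.2 CPM over all genes tested. Among genes of at least 20 CPM, a level chosen after seeing the data, the same 8 stood among 21 members, against a background of 16.1%. DESeq2 called 1 member at an adjusted p below 0.05, Acat1, where it called 1.17% of all genes. Because the members were chosen with earlier results of these data known, their counts beside a background are a description, here and below.

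The log2 fold change of CAC over CTR was below 0 for 19 of 24 members, against 50.0% of all genes, with a median of -0.13 over the members and -0.00 over all genes tested. Members whose log2 fold change was below 0 numbered between 17 and 20 in the alternative fits. In 5 members every CAC library lay below every CTR library (background 3.40%), which were Acat1, Pccb, Hibadh, Pcca and Acad8. In 2 members, Hsd17b10 and Oxct1, every CAC library lay above every CTR library (background 3.64%). The differences were small, as the log2 fold changes of all 24 members lay between -0.42 and 0.42.

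**Figure D1:**
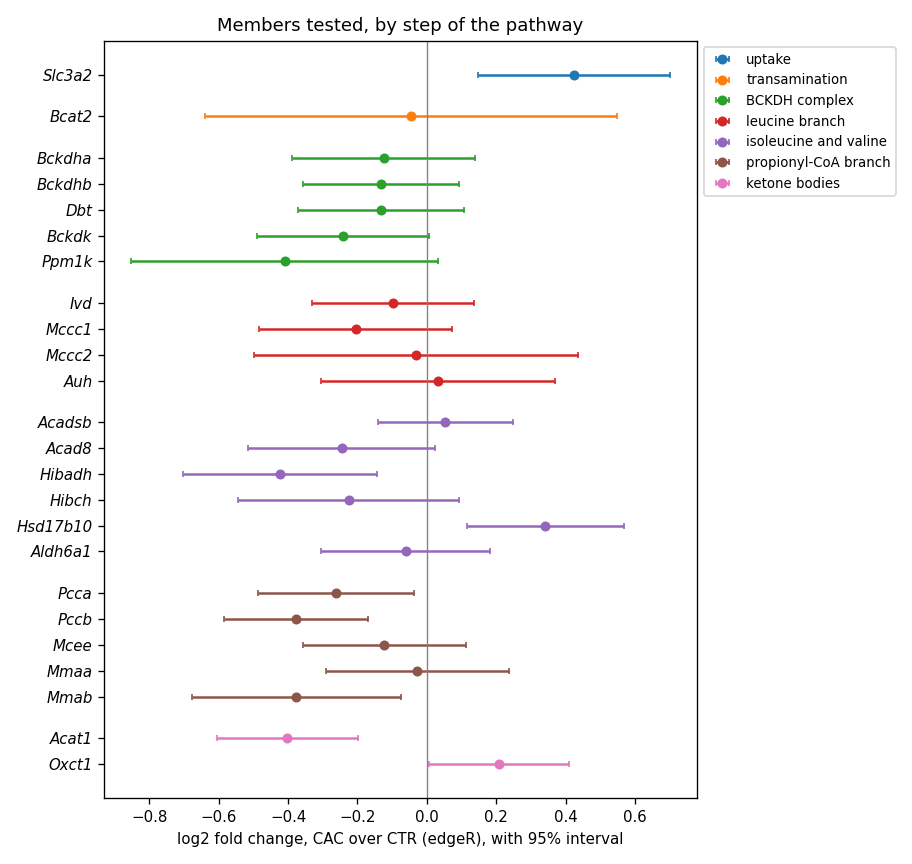
Log2 fold change of CAC over CTR (horizontal axis) from edgeR for the 24 members tested, with bars for the 95% interval, grouped and coloured by step of the pathway. The intervals of Acat1, Pccb, Hibadh, Mmab and Pcca lie below 0 and those of Slc3a2, Hsd17b10 and Oxct1 lie above it, while all others include 0.

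The propionyl-CoA branch gave values below 0 for all 5 of its members, against 50.0% of all genes, and their median was -0.26 on the log2 scale. Of the 5, 3 were lower with an unadjusted p below 0.05, against 5.93% of all genes, and none passed the adjusted test. Pccb and Pcca encode the beta and alpha subunits of propionyl-CoA carboxylase, the biotin enzyme that makes methylmalonyl-CoA. Pccb (chr9:100982032-101034898, minus strand, GRCm38) measured 162, 169, 156 and 155 CPM in CTR replicates 1 to 4 and 123, 121, 114 and 137 CPM in CAC replicates 1 to 4. The highest CAC library lay below the lowest CTR library. The means were 160 ± 6.33 CPM (SD, n = 4) in CTR and 124 ± 9.61 CPM (SD, n = 4) in CAC. The log2 fold change was -0.38 ± 0.10 (SE), with an adjusted p of 0.0763 in edgeR.

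Pcca (chr14:122534324-122891100, plus strand, GRCm38) measured 78.1, 79.4, 70.5 and 72.8 CPM in CTR and 62.7, 58.5, 65.1 and 64.1 CPM in CAC, in the order of the replicate numbers. The groups did not overlap, and the spread within CAC was small. CAC over CTR gave a log2 fold change of -0.26, from 75.2 ± 4.22 to 62.6 ± 2.90 CPM (SD, n = 4 each), with an adjusted p of 0.290 in edgeR. Its exons share bases with Ggact on the opposite strand, and no source used here states whether the counting used strand. Within a library, the log2 ratio of Pcca to Pccb counts averaged -1.09 ± 0.04 for CTR and -0.98 ± 0.12 for CAC (SD, n = 4 each), a description chosen after the values were seen. The ranges, -1.15 to -1.05 and -1.09 to -0.80, overlapped.

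Of the 30 members, 26 had an entry in RefSeq's promoter table (GRCm38.p6), which gives 250 bases before and 50 after a transcript start. The promoters of the 2 carboxylase subunits are shown, and both genes had all CAC libraries below all CTR libraries. Acat1, Hibadh and Acad8 did too, and their promoters are not shown. The Pcca window shown is chr14:122534078-122534377 on the plus strand, which holds the gene start given above, and the Pccb window is chr9:101034835-101035134 on the minus strand. A further Pcca window, chr14:122484115-122484414 on the plus strand, holds 1 CCAAT box and 1 nuclear receptor half-site and is not shown. Capitals mark matches, on either strand, to the GC box (GGGCGG), the CCAAT box (CCAAT), the nuclear receptor half-site (AGGTCA) and the NRF1 core (TGCGCA), and no marked matches overlap.
Pcca: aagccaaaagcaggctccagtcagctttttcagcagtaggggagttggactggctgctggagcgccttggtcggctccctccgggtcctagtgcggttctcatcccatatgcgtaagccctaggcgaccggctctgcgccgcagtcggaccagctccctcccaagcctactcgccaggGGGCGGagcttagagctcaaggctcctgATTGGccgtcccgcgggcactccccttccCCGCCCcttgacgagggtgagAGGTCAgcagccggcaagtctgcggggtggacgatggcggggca
Pccb: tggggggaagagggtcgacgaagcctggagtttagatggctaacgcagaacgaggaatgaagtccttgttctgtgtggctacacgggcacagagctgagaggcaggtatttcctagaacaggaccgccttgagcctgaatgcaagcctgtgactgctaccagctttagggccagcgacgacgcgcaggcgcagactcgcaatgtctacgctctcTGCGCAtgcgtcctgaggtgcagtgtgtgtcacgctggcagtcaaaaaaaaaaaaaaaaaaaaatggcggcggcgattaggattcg
The Pcca window shown holds 2 GC boxes, 1 CCAAT box and 1 half-site, and the Pccb window holds 1 NRF1 core and no match to the others. Among all 32851 promoters of the table, 35.7% hold a GC box, 37.4% a CCAAT box, 16.3% the half-site and 7.76% the NRF1 core. Of the 33 promoters of the members, 17, 18, 7 and 3 hold these motifs, in the same order. An E box (CACGTG, in 7.15% of all promoters) was found in 1 of the 33, at Mccc2, and the ETS core (CCGGAAG, in 8.86%) in 2, at Auh and Slc3a2. These matches describe the letters of the windows only.

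Mmab encodes the adenosyltransferase that makes the cobalamin cofactor of methylmalonyl-CoA mutase. It measured 46.1, 42.1, 40.7 and 34.6 CPM in CTR and 35.1, 38.3, 27.8 and 26.1 CPM in CAC, and CAC replicates 1 and 2 lay above CTR replicate 4, so the groups overlapped. Its log2 fold change was -0.38 (95% interval -0.68 to -0.07), with an adjusted p of 0.261 in edgeR. The intervals of Mcee and Mmaa included 0. Mcee, the methylmalonyl-CoA epimerase, measured 180 to 236 CPM in CTR and 164 to 223 CPM in CAC, and CAC over CTR gave -0.12 on the log2 scale (95% interval -0.36 to 0.11). Mmaa, a GTPase that guards the mutase cofactor, had a log2 fold change of -0.03 (95% interval -0.29 to 0.24), and its sign turned when CAC replicate 4 or CTR replicate 4 was left out.

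In the ketone group, the 2 members that passed the filter gave differences of opposite sign. Acat1 (chr9:53580522-53610382, minus strand, GRCm38), the mitochondrial acetoacetyl-CoA thiolase, had the smallest p of all members. It measured 217, 240.0, 203 and 213 CPM in CTR replicates 1 to 4 and 155, 158, 164 and 182 CPM in CAC replicates 1 to 4, so that all CAC libraries lay below all CTR libraries. Means were 218 ± 15.7 CPM for CTR and 165 ± 12.1 CPM for CAC (SD, n = 4 each), and the log2 fold change was -0.40 ± 0.10 (SE). Its p was 0.000508 and its adjusted p was 0.0533 in edgeR, just outside the threshold. Its adjusted p ranged from 0.0108 to 0.174 over 17 alternative fits, 5 of which called it: DESeq2, upper quartile normalization, no low-count filter, at least 10 counts in every library, and the fit without CTR replicate 3.

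Oxct1 (chr15:4026383-4155344, plus strand, GRCm38) encodes the transferase that moves CoA from succinyl-CoA to acetoacetate, the committed step of ketone use outside the liver. It measured 224, 228, 212 and 235 CPM in CTR and 261, 296, 237 and 247 CPM in CAC, and the lowest CAC library exceeded the highest CTR library. CAC over CTR gave a log2 fold change of 0.21, from 225 ± 9.44 to 260.0 ± 25.6 CPM (SD, n = 4 each), with an adjusted p of 0.363 in edgeR. Its exons share bases with BC037032 on the opposite strand. Its promoter (chr15:4026178-4026477, plus strand, RefSeq, GRCm38.p6) is shown beside those of the carboxylase and holds none of the 6 motifs searched. Hsd17b10 also had all CAC libraries above all CTR libraries, and its promoter is not shown. The Hsd17b10 window holds 1 GC box and 1 CCAAT box.
Oxct1: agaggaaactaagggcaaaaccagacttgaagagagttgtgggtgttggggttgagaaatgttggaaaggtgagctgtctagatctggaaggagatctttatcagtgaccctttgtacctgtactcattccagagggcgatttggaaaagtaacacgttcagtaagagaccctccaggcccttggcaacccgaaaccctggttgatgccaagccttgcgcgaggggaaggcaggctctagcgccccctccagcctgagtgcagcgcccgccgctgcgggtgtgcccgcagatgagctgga
The log2 ratio of Acat1 to Oxct1 counts within a library averaged -0.04 ± 0.09 for CTR and -0.65 ± 0.21 for CAC (SD, n = 4 each), with ranges of -0.14 to 0.08 and -0.90 to -0.44 that did not overlap. This pair was chosen after its values were seen, so no test is given.

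**Figure D2:**
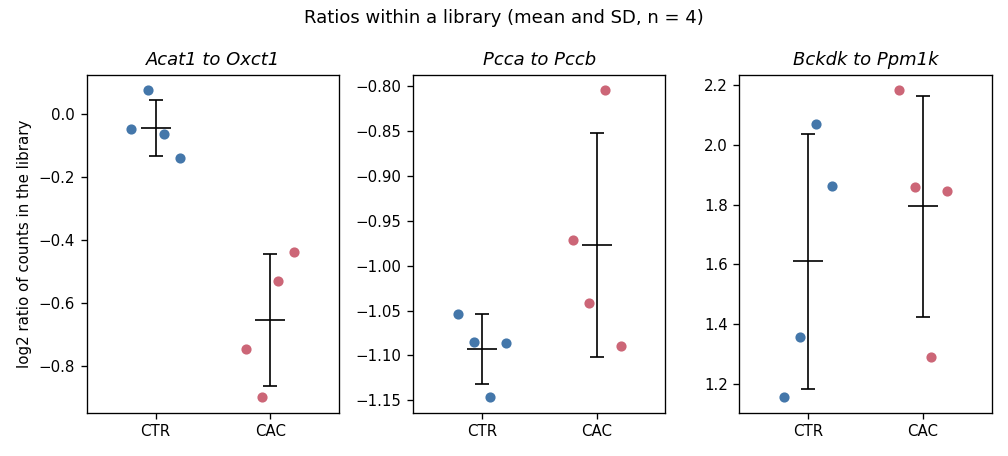
Log2 ratio of the counts of 2 genes within a library (vertical axis) for CTR and CAC, with a point for each of the 4 libraries and black marks for the mean and SD; each panel has its own scale. The Acat1 to Oxct1 ratio runs from -0.14 to 0.08 over the CTR libraries and from -0.90 to -0.44 over the CAC libraries, while the Pcca to Pccb and Bckdk to Ppm1k ratios overlap between the groups.

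The dehydrogenases that interconvert beta-hydroxybutyrate and acetoacetate were near the detection limit. Bdh1, the mitochondrial enzyme, had 0, 0, 2 and 0 counts in CTR and 2, 1, 4 and 1 counts in CAC, and Bdh2, a cytosolic relative, had 2, 1, 1 and 0 and 1, 1, 3 and 0 counts. These levels sit at or around the 3 counts that a count of 0 allows, so no fold change is given. For the same reason nothing is read from the log2 ratio of Bdh1 to Oxct1. The size of its difference moved with the added count, at 1.81 with 0.5 added and 1.31 with 1 added. With single libraries left out the difference ranged from 1.44 to 2.57 and kept its sign. The exact two-sided permutation p was 0.0857 (0.257 adjusted over 3 ratios).

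In the isoleucine and valine branch, 6 of 7 members were tested, 4 with a log2 fold change below 0 and 2 above, and the median was -0.14. Hibadh (chr6:52546228-52640389, minus strand, GRCm38), the 3-hydroxyisobutyrate dehydrogenase of valine breakdown, measured 91.0, 88.4, 81.7 and 80.7 CPM in CTR and 47.0, 55.3, 75.0 and 74.6 CPM in CAC. All CAC libraries lay below all CTR libraries, but CAC replicates 1 and 2 lay far lower than CAC replicates 3 and 4. Hibadh shares exon bases with Gm24355 on the same strand, and 9 of the 30 members share exon bases with another annotated gene. The log2 fold change was -0.42 ± 0.13 (SE), from 85.5 ± 5.05 to 63.0 ± 14.1 CPM (SD, n = 4 each), with an adjusted p of 0.151 in edgeR. Hibch, which acts on valine just before it, showed the same 2 low CAC libraries, at 29.2 and 26.1 CPM against 35.7 and 45.3 CPM in the others and 34.8 to 43.5 CPM in CTR. Its log2 fold change was -0.23 (95% interval -0.54 to 0.09).

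Hsd17b10 (chrX:152001845-152004442, plus strand, GRCm38) encodes a dehydrogenase of isoleucine breakdown that is also a subunit of mitochondrial RNase P. It measured 98.6, 105, 115 and 96.4 CPM in CTR and 129, 118, 127 and 151 CPM in CAC, and the groups did not overlap. Its log2 fold change was 0.34 ± 0.11 (SE), from 104 ± 8.36 to 131 ± 14.1 CPM (SD, n = 4 each), with an adjusted p of 0.151 in edgeR. The sign was opposite to that of Hibadh and of Acat1, which also serves isoleucine breakdown.

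Acad8, the isobutyryl-CoA dehydrogenase of valine breakdown, had every CAC library below every CTR library, at 26.5 to 32.1 CPM against 32.4 to 35.7 CPM. Its log2 fold change was -0.24 (95% interval -0.51 to 0.02) with an adjusted p of 0.439 in edgeR, and CAC replicate 4 lay close to CTR replicate 1. Acadsb, the corresponding dehydrogenase of isoleucine, measured 151 to 171 CPM in CTR and 166 to 172 CPM in CAC, and CAC over CTR gave 0.05 on the log2 scale (95% interval -0.14 to 0.25). Aldh6a1, which oxidizes methylmalonate semialdehyde, gave -0.06 (95% interval -0.31 to 0.18). Abat, the aminotransferase that also acts on GABA, had 2 counts in all CTR libraries together and 0 in all CAC libraries, each below the limit of 3 counts.

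**Figure D3:**
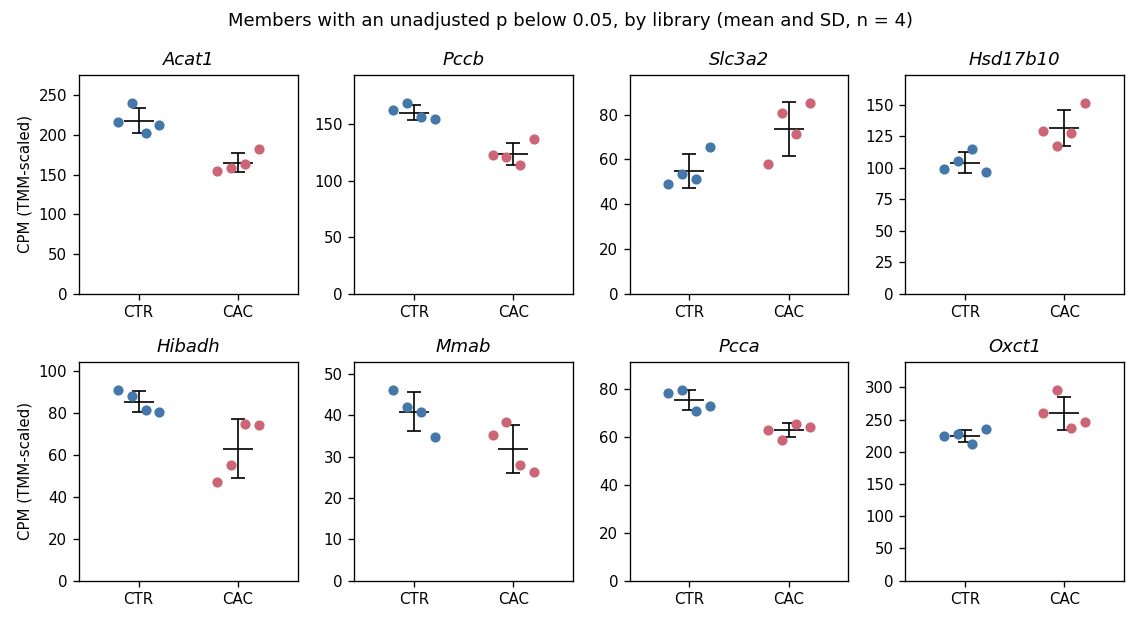
Level in CPM (vertical axis, from 0) of the 8 members with an unadjusted p below 0.05, with a point for each of the 4 CTR and 4 CAC libraries and black marks for the mean and SD. CTR and CAC libraries do not overlap for Acat1, Pccb, Hsd17b10, Hibadh, Pcca and Oxct1, and they overlap for Slc3a2 and Mmab.

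At the entry of the pathway, Slc3a2 encodes the heavy chain shared by several amino acid exchangers, among them the leucine transporters whose light chains are Slc7a5 and Slc7a8. Slc3a2 (chr19:8706882-8723369, minus strand, GRCm38) measured 48.9, 53.5, 51.0 and 65.7 CPM in CTR and 57.8, 80.8, 71.2 and 85.1 CPM in CAC. CAC replicate 1 lay below CTR replicate 4, so the groups overlapped by this pair of libraries. The log2 fold change was 0.42 ± 0.13 (SE), from 54.8 ± 7.50 to 73.7 ± 12.1 CPM (SD, n = 4 each), with an adjusted p of 0.147 in edgeR. Over 17 alternative fits its log2 fold change ranged from 0.35 to 0.54 and its adjusted p from 0.0485 to 0.350, and 1 fit called it, that without CAC replicate 1 (log2 fold change 0.52). Its deposited counts held fractions in all 8 libraries, those of Pcca and Bckdk in 6, of Aldh6a1 in 5 and of Bckdha and Ppm1k in 4, with 1 or 2 libraries in a further 7 members, and the source of the fractions was not tested.

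The light chains were barely detected. Slc7a5 had 0, 1, 0 and 0 counts in CTR and 0, 0, 3 and 1 in CAC, and Slc7a8 had 3, 5, 1 and 2 counts in CTR and 0, 1, 0 and 2 in CAC. The 6 members below the filter, compared by exact two-sided permutation tests of CPM (n = 4 each, smallest possible p 0.0286), gave unadjusted p values from 0.0857 to 1.

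The transaminases had low counts. Bcat2, the mitochondrial aminotransferase, measured 6.84, 9.32, 4.15 and 7.28 CPM in CTR and 7.03, 3.19, 8.20 and 8.02 CPM in CAC, and the groups overlapped throughout. Its log2 fold change was -0.04 (95% interval -0.64 to 0.55), and its sign turned without CTR replicate 2 or CAC replicate 2. Bcat1, the cytosolic form, had 0, 3, 3 and 1 counts in CTR and 3, 0, 1 and 1 in CAC. Nothing is read from the log2 ratio of Bcat1 to Bcat2, since Bcat1 had at most 3 counts in a library and the difference was reversed without CTR replicate 1, CTR replicate 4 or CAC replicate 1.

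All 5 genes of the BCKDH complex and its control had log2 fold changes below 0, against 50.0% of all genes, and none had an unadjusted p below 0.05. Their median was -0.13 to 2 decimals, as was that of all members. The catalytic genes gave values near 0: Bckdha and Bckdhb, which form the decarboxylase, gave -0.12 (95% interval -0.39 to 0.14) and -0.13 (95% interval -0.36 to 0.09), and Dbt, the transacylase core, gave -0.13 (95% interval -0.37 to 0.11). With single libraries left out, Bckdha ranged from -0.22 (without CAC replicate 2) to -0.033 (without CAC replicate 4), Bckdhb from -0.19 (without CAC replicate 1) to -0.059 (without CTR replicate 4) and Dbt from -0.19 to -0.077, and none passed the adjusted test. Bckdk, the kinase that inactivates the complex, measured 54.0 to 58.9 CPM in CTR and 44.3 to 58.5 CPM in CAC. In CAC, replicate 2 alone lay within the CTR range, and the log2 fold change was -0.24 with an adjusted p of 0.396 in edgeR.

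Ppm1k, the phosphatase that restores the complex to activity, measured 24.1, 22.9, 13.7 and 16.1 CPM in CTR and 10.3, 16.0, 18.5 and 12.2 CPM in CAC. CTR replicates 1 and 2 were high and the other CTR libraries lay among the CAC libraries, and the log2 fold change was -0.41 (95% interval -0.85 to 0.03, adjusted p of 0.427 in edgeR). The balance of kinase to phosphatase within a library, as the log2 ratio of Bckdk to Ppm1k counts, averaged 1.61 ± 0.43 for CTR and 1.79 ± 0.37 for CAC (SD, n = 4 each). The difference of 0.18, which ranged from 0.031 without CTR replicate 1 to 0.35 without CAC replicate 3, was smaller than the spread within either group, with an exact two-sided permutation p of 0.571 (0.83 adjusted over 3 ratios).

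The leucine branch had a median log2 fold change of -0.06 over 4 members and no unadjusted p below 0.05. Ivd, the isovaleryl-CoA dehydrogenase, gave -0.10 (95% interval -0.33 to 0.14). Mccc1 and Mccc2, the subunits of methylcrotonyl-CoA carboxylase, gave -0.20 (95% interval -0.48 to 0.07) and -0.03 (95% interval -0.50 to 0.43), and Auh, the hydratase that follows, gave 0.03 (95% interval -0.30 to 0.37). The signs of Mccc2 and Auh turned when single libraries were left out (CTR replicate 2 or CAC replicates 1, 2 or 3 for Mccc2, CTR replicates 1 or 2 or CAC replicate 4 for Auh). Mccc1 shares exon bases with 3 genes on the opposite strand, among them Mccc1os.

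Read library by library, the members' deviations from the CTR mean gave a median log2 of -0.07 to 0.05 in the CTR libraries and of -0.22, -0.09, -0.12 and -0.14 in CAC replicates 1 to 4. CAC replicate 1 had the lowest median. Of the marker lists described above, its sums within CAC were the highest for erythroid (44326 CPM), neutrophil (429 CPM) and brown adipocyte genes (20022 CPM). Its skeletal muscle sum was the lowest within CAC (3419 CPM), and its macrophage sum lay between those of other CAC libraries (330 CPM). Whether these sums go with the members' median was not tested. The summed level of all members was 2003 to 2118 CPM in CTR and 1858 to 1980 CPM in CAC, without overlap. The sums are a description, with no test over the members.

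**Figure D4:**
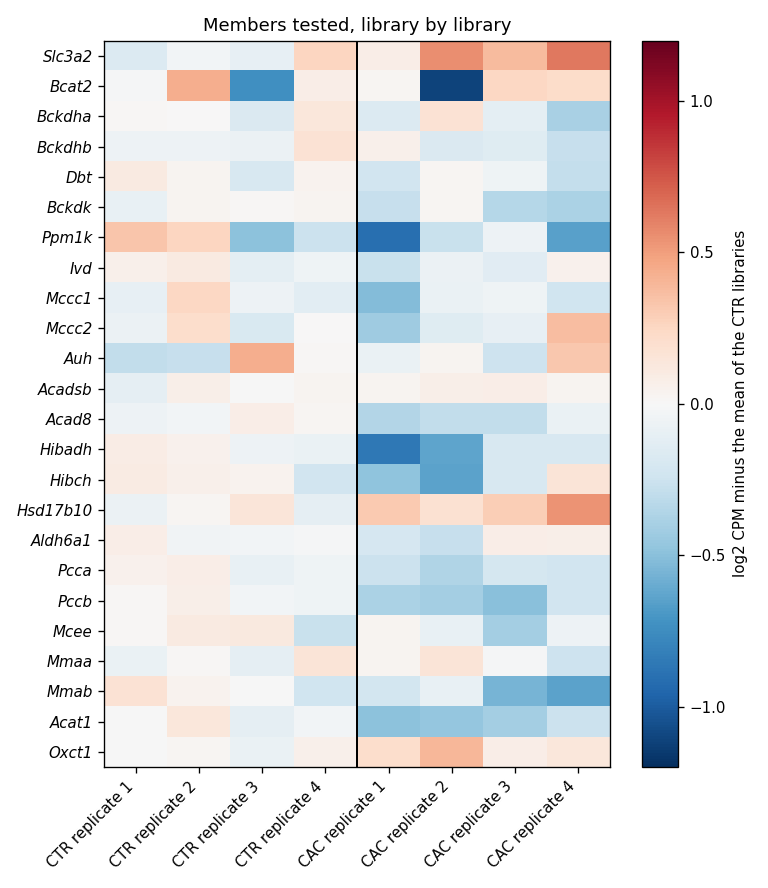
Log2 CPM of each of the 24 members tested minus the mean of the CTR libraries (colour), for 4 CTR and 4 CAC libraries (columns), ordered by step of the pathway. In all CAC libraries Acat1, Pccb, Pcca, Hibadh, Acad8, Mmab, Mccc1 and Ppm1k lie below the CTR mean (blue) and Hsd17b10, Oxct1, Slc3a2 and Acadsb above it (red), while Bcat2 takes both signs in each group.

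Beside the members, 13 symbols for other enzymes and carriers of the same steps were read, of which 12 were tested, and the median log2 fold change was -0.12. At an unadjusted p below 0.05 in edgeR, 3 of the 12 were lower (5.93% of all genes) and none higher (7.01% of all genes). Only Hadh, the short-chain hydroxyacyl-CoA dehydrogenase of fatty acid oxidation, passed the adjusted test. It fell from 772, 773, 755 and 682 CPM in CTR to 497, 545, 551 and 628 CPM in CAC (log2 fold change -0.42, adjusted p of 0.0304 in edgeR). The call was lost with the replicate number as a block (log2 fold change -0.43) and without any of CTR replicates 1 to 3 or CAC replicates 1 to 3, with log2 fold changes of -0.42 to -0.37 in these fits.

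Of 10 further genes of ketone synthesis and transport, 7 were tested, the median log2 fold change was -0.27 and none passed the adjusted test in edgeR. At an unadjusted p below 0.05 in edgeR, 4 of the 7 were lower (5.93% of all genes) and 1 was higher (7.01% of all genes). Slc16a7, a monocarboxylate transporter, measured 5.51 to 7.88 CPM in CTR and 2.70 to 4.98 CPM in CAC (log2 fold change -0.76, adjusted p of 0.253). Bsg, a chaperone of some monocarboxylate transporters, gave 0.30 (adjusted p of 0.196). Among 13 genes of cobalamin and biotin handling, 11 were tested and none passed, with Tcn2, the cobalamin carrier, at 0.47 (adjusted p of 0.107) and Btd, which recycles biotin, at -0.74 (adjusted p of 0.178). Of these 11, 2 were lower and 1 was higher at an unadjusted p below 0.05 in edgeR, against the same shares of all genes.

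None passed among 14 tested genes of other amino acid transporters (of 20), 12 of glutamate and nitrogen handling (of 14), 16 of leucine sensing by mTORC1 (of 21) and 11 of the ATF4 response to amino acid shortage (of 16), with medians of -0.06, 0.02, -0.15 and -0.03. In these lists the smallest p values belonged to Slc7a1, the cationic amino acid transporter, at a log2 fold change of 1.03, Slc25a22, a mitochondrial glutamate carrier, at -0.58, Glul, glutamine synthetase, at 0.26, Got2, mitochondrial aspartate aminotransferase, at 0.36, Rraga, a Rag GTPase, at -0.31, Tsc2 at -0.30, Cebpb at -0.32 and Psph at -0.44. Their adjusted p values in edgeR ranged from 0.200 to 0.486.

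Of 11 transcriptional controllers of these pathways, 10 were tested and 1 passed. Ppargc1a, the coactivator of mitochondrial biogenesis, rose from 43.9, 44.7, 52.3 and 66.4 CPM in CTR to 106, 65.9, 91.1 and 82.3 CPM in CAC (log2 fold change 0.73, adjusted p of 0.0201 in edgeR). CAC replicate 2 lay just below CTR replicate 4, and the call was lost without CTR replicate 1 (0.66), CTR replicate 2 (0.66) or CAC replicate 3 (0.70). Pparg, the adipocyte regulator, gave -0.71 with an adjusted p of 0.261.

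The products of both pathways enter the citric acid cycle, and its 20 genes with those of the pyruvate and oxoglutarate dehydrogenases, a list chosen after seeing the data, were all tested. Their median log2 fold change was -0.18, 18 of 20 lay below 0 (50.0% of all genes), and 2 passed the adjusted test in edgeR (0.932% of all genes). Because the list was chosen on these libraries, its counts are a description. Fh1, fumarate hydratase, fell from 97.4 ± 6.37 to 61.9 ± 12.7 CPM (SD, n = 4 each), a log2 fold change of -0.64 with an adjusted p of 0.0175, and the call was lost without CTR replicate 1 (-0.64) or CAC replicate 2 (-0.58). Cs, citrate synthase, fell from 380 ± 24.7 to 289 ± 19.3 CPM (SD, n = 4 each), a log2 fold change of -0.40 with an adjusted p of 0.0435. The call of Cs was lost under library size normalization (-0.41), under the replicate block (-0.40), under limma-trend (-0.39) and without any of CTR replicates 1, 2 and 4 or CAC replicates 1 to 3 (-0.40 to -0.36).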

How the data were processed

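RNA from BAT of 8 mice (4 CTR, 4 CAC) was read as single-end reads of 75 cycles from 50 ng of total RNA. Per the submitters' processing notes and the study's methods, reads were checked with FastQC 0.11.9, aligned with HISAT2 2.2.1 to mm10 and counted with featureCounts, multi-mapping reads included; no setting for strand is given in the sources used here. The deposited expected counts hold fractions of reads (25.1% to 28.4% of the nonzero values of a library) and were rounded before testing. The deposited normalized table, a signal the authors made as counts divided by a size factor per library, was used in 1 alternative. Total counts of 1823167 to 4827956 per library set the precision.

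The members and lists were chosen with earlier results of these data known. Members were matched by gene name. edgeR 4.0.16 (R 4.3.3) with filterByExpr, TMM normalization and the robust quasi-likelihood test compared CAC with CTR over 9876 genes, with Benjamini-Hochberg adjustment at 0.05, and was tested on simulated data. Genes named were all members, and of each other pathway list every gene with an adjusted p below 0.05 and the 2 with the smallest p; single markers were named where called. A gene that this rule selects is not reported here. Ratios used counts plus 0.5 and exact permutation tests over 70 assignments. Alternatives were DESeq2 1.42.0, other normalizations and filters, dropping the decimals, the replicate block, the limma-trend test of limma 3.58.1 on log2 of the deposited signal plus 1, and each library left out. Leaving out mitochondrially encoded genes, the citric acid cycle list and the background at 20 CPM were chosen after seeing the data. The labels number the replicates without naming single mice, and the study gives n = 4 per group, so replicates were read as separate mice. Promoter motifs were also chosen after seeing the data, and the NRF1 core replaced a longer form of that motif that had been searched before it. Gene positions came from GENCODE M21 (GRCm38), matched by identifier without version for all 30 members. Tables were made with pandas 2.3.3 and numpy 2.4.6, and plots with matplotlib 3.10.9, in Python 3.11.15.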

Additional observations from a re-analysis of the deposited data

Results flagged for a closer look

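In each of 70 groups of 4 libraries, the highest and lowest library were compared with the others, and 5 groups held a library far from the rest where chance gives about 1 in 20, or 3.5. Bckdhb in CTR replicate 4 measured 140.67 CPM against 118.68 to 119.58 CPM in the other CTR libraries. Bckdk in CTR replicate 1 measured 53.979 CPM against 58.096 to 58.869 CPM, and Mccc1 in CTR replicate 2 measured 53.266 CPM against 41.23 to 43.157 CPM. The summed brown adipocyte markers reached 20292 CPM in CTR replicate 4 against 18397 to 18675 CPM, and the summed macrophage markers were 208.73 CPM in CTR replicate 3 against 230.64 to 233.91 CPM. The cause was not tested.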

How the results depend on the processing

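Of 407 comparisons of a member's log2 fold change with an alternative fit, 388 kept their direction and side of the threshold, 8 passed the threshold where the edgeR fit as reported did not, and 11 changed sign, and 20 of 24 members kept their sign in all 17 alternatives, or all that tested them. Members with an adjusted p below 0.05 numbered 1 with DESeq2, 1 with upper quartile normalization and 1 with at least 10 counts in every library (Acat1 each time), 3 with no filter (Acat1, Hibadh and Pccb), 2 at a threshold of 0.1 (Acat1 and Pccb), and 0 to 1 with each library left out (Acat1 without CTR replicate 3, Slc3a2 without CAC replicate 1). Members with an unadjusted p below 0.05 numbered 5 to 9 with each library left out, with 5 without CTR replicate 1. The share of all genes at that p is not given for these fits, so nothing is read from these member counts. Among all genes, 116 of 9876 had an adjusted p below 0.05 with DESeq2 and 86 of 9876 with upper quartile normalization. With at least 10 counts in every library 70 of 7539 did, and with no filter 351 of 23730. The number was 42 (without CTR replicate 1) to 135 (without CTR replicate 3) with each library left out. No number over all genes is given for the threshold of 0.1. Sign changes came with each library left out: log2 fold changes then ranged from -0.19 to 0.14 for Bcat2, -0.21 to 0.063 for Mccc2, -0.086 to 0.20 for Auh and -0.083 to 0.053 for Mmaa, the log2 ratio of Bcat1 to Bcat2 from -0.33 to 0.90, and the difference in Bcat1 from -0.35 to 0.23 CPM. The cause of these changes was not tested. The median log2 fold change of the members stayed between -0.18 and -0.11 in all alternatives. Pparg passed the adjusted test with no filter (-0.73).

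In their deviations from the group means, CTR and CAC libraries of the same replicate number correlated at -0.02 to 0.04. Those of different numbers correlated at -0.05 to 0.04. Whether the numbers mark a pair or a batch cannot be told from these values. With the replicate block, 140 genes and 0 members had an adjusted p below 0.05, against 92 genes and 0 members without it.

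With 4 libraries a group, a p that misses the threshold does not show equal levels. The 6 members below the filter had group means of 0 to 0.82 CPM, against a median of 15.2 CPM over all genes tested. Whether they differed between the groups cannot be told at these counts. At a count of 0, absence of a transcript and limited depth cannot be told apart.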
